A study of Mus musculus with 13 samples.

Results

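The CDK inhibitor genes Cdkn1a, Cdkn1b, Cdkn1c, Cdkn2a, Cdkn2b, Cdkn2c and Cdkn2d were followed through 13 mRNA sequencing libraries of mouse bone marrow cells. They were chosen by gene symbol, and each of the 7 symbols had its own row among the 24328 genes listed in every library. The groups were wild-type granulocyte-monocyte progenitors (GMP), leukemia stem cells (LSC) and mature acute myeloid leukemia cells (mAML), with 1 library each, and LSC given A-485 for 0, 8, 24, 48 or 72 h, with 2 libraries at each time. A-485 blocks the acetyltransferase activity of p300 and CBP. The leukemia carries the fusion gene MLL-AF10 and its cells were grown in medium with serum and WEHI-conditioned medium. The sources used here do not say how the LSC and mAML were sorted, how the fusion gene was delivered, or how many mice or cell lines the libraries stand for. The labels call the 0 h cells untreated, state no dose, and mention no vehicle control at any time. They also do not say whether both libraries of a time came from separate cultures, so the p-values measure a spread that may be technical.

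CDK inhibitors are small proteins that hold back the kinases driving the cell cycle. The CIP/KIP proteins p21 (Cdkn1a), p27 (Cdkn1b) and p57 (Cdkn1c) bind complexes of cyclins with several CDKs. The INK4 proteins p16 and p15 (Cdkn2a, Cdkn2b), p18 (Cdkn2c) and p19 (Cdkn2d) bind CDK4 and CDK6, and the Cdkn2a locus also encodes Arf, which stabilizes p53 by inhibiting MDM2. In blood formation they restrain division of stem and progenitor cells and accompany the exit from the cell cycle as cells mature.

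Expected counts summed to 24532513 (GMP), 40468524 (LSC) and 47257637 (mAML) in the single libraries and to between 6467762 and 9763278 in the time course. All 10 progenitor marker genes, such as Kit and Mpo, reached 1 TPM, a length-scaled share of transcripts, in GMP and LSC, and 9 did in mAML. Their sums were 40612 TPM (GMP), 30762 TPM (LSC) and 2503 TPM (mAML). The 8 genes known as MLL-fusion targets, such as Hoxa9 and Meis1, reached 1 TPM in LSC, mAML and every time-course library, and 6 did in GMP. Their sums were 21.3 TPM (GMP), 339 TPM (LSC) and 222 TPM (mAML). The 12 neutrophil genes found in the files had sums of 2022 TPM (GMP), 22824 TPM (LSC) and 93994 TPM (mAML). In mAML, 15 of 16 T and NK cell genes reached 1 TPM against 2 of 16 in LSC, and the 13 erythroid genes summed to 3397 TPM against 40.1. The libraries at 8 h replicate 2, 24 h replicate 2 and 72 h replicate 1 stood apart, with Wnt2 at 67.1, 69.2 and 20.9 CPM (scaled counts relative to library size) against at most 3.58 in the other 10.

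In the untreated cells, the INK4 genes Cdkn2c and Cdkn2d led in the 3 single libraries, while Cdkn1a led in the 0 h libraries. TPM, which is scaled for transcript length, orders the genes within a library. In GMP, Cdkn2c stood at 26.3 TPM, Cdkn2d at 23.9, Cdkn1b at 11.7, Cdkn1a at 6.99 and Cdkn1c at 0.32, and Cdkn2a and Cdkn2b had 0 counts. In LSC, Cdkn2c stood at 228 TPM and Cdkn2d at 109, followed by Cdkn1c at 34.6, Cdkn1b at 15.7, Cdkn1a at 3.71, Cdkn2a at 1.64 and Cdkn2b at 0.11. In mAML, Cdkn2c (185 TPM) and Cdkn2d (137) were again highest, then Cdkn1b (33.3), Cdkn1a (23.5), Cdkn2a (9.81), Cdkn1c (1.33) and Cdkn2b (0.72). The order in LSC differed from that in GMP in Cdkn1c, which lay below Cdkn1a in GMP and between Cdkn2d and Cdkn1b in LSC. The 7 genes summed to 69.2 TPM in GMP, 392 in LSC and 391 in mAML.

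**Figure D1:**
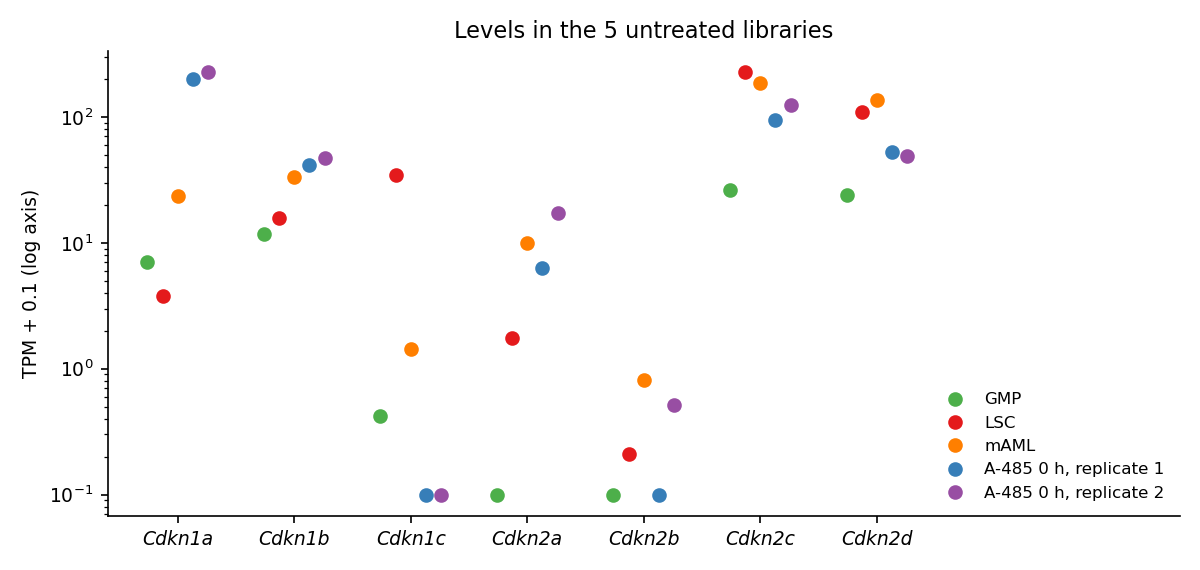
Level of each CDK inhibitor gene in the 5 untreated libraries, as TPM with 0.1 added, on a log axis; each point is 1 library and genes with 0 counts lie at 0.1. Cdkn1c stands out in LSC at 34.6 TPM and Cdkn1a in both 0 h libraries, at 199 and 226 TPM.

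Between LSC and GMP, 3 of the 5 members with at least 1 CPM in either library were at least 2-fold higher in LSC and none were at least 2-fold lower. Of all 11362 genes considered, 13.4% were at least 2-fold higher and 12.2% lower. These comparisons rest on 1 library a side, so they have no replicate check. Log2 ratios of CPM are given with a prior count of 5. The 95% exact binomial interval beside each belongs to the ratio without that prior and covers counting error only.

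Cdkn1c, whose product p57 keeps blood stem cells quiescent, had 1713 counts in LSC (42.7 CPM) and 9 in GMP (0.339 CPM), a log2 ratio of 6.45 with a prior count of 5 and 6.98 [6.05, 8.11] without it. Cdkn2c had 10525 counts in LSC and 721 in GMP, a log2 ratio of 3.26 [3.16, 3.38]. Cdkn2d had 3410 and 424 counts, a ratio of 2.40 [2.27, 2.56]. All 3 intervals lie above a 2-fold difference. Cdkn1b, with 1001 and 417 counts, had a smaller ratio of 0.66 [0.50, 0.84]. Cdkn1a went the other way, with 184 counts in LSC and 195 in the less deeply sequenced GMP, a ratio of -0.66 [-0.98, -0.38]. Cdkn2a had 35 counts in LSC and 0 in GMP, which makes it at least 7.72-fold higher in LSC when GMP is set to a floor of 3 counts. Cdkn2b had 4 counts in LSC and 0 in GMP, too few for a ratio.

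Mature leukemia cells had Cdkn2c and Cdkn2d within 2-fold of LSC and differed from LSC mainly in Cdkn2a and the CIP/KIP genes. Of 6 members considered, 3 were at least 2-fold higher in mAML than in LSC and 1 was at least 2-fold lower, against 16.4% and 8.65% of 11521 genes. Cdkn1c had 76 counts in mAML against 1713 in LSC, a log2 ratio of -4.54 [-4.98, -4.30]. Cdkn1a had 1349 counts against 184, a ratio of 2.71 [2.52, 2.97], and Cdkn1b had 2448 against 1001, a ratio of 1.15 [1.05, 1.26]. Cdkn2a had 239 counts against 35, a ratio of 2.48 [2.12, 3.19], and thereby joined the CIP/KIP pair Cdkn1a and Cdkn1b on the higher side. Cdkn2c and Cdkn2d differed less, with ratios of -0.33 [-0.37, -0.29] and 0.41 [0.35, 0.48]. The mAML library also had the largest neutrophil, monocyte, erythroid, B cell and stromal sums of the 3 single libraries. Its monocyte genes summed to 2489 TPM, against 413 in GMP and 230 in LSC. Its progenitor sum and its mast cell, basophil and eosinophil sum were the smallest. It had the most T and NK cell genes at 1 TPM or more (15, against 1 in GMP and 2 in LSC). The T and NK cell genes summed to 999 TPM in GMP, 156 in LSC and 319 in mAML. Of these sums, the gene Nkg7 alone held 996 TPM in GMP, 153 in LSC and 43.3 in mAML. The part of other cells in these ratios was not tested. In bulk RNA, fewer cells of a type and less RNA per cell cannot be told apart.

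Against GMP, all 6 members considered were at least 2-fold higher in mAML, where 22.1% of 11738 genes were. The ratios of 5 of them ran from 1.81 for Cdkn1b to 2.94 for Cdkn2c, and Cdkn2a was at least 48.0-fold higher, again against a floor of 3 counts. Cdkn2b, with 29 counts in mAML and 0 in GMP, was at least 5.82-fold higher but stayed below 1 CPM and so was not among the 6. With 1 added to TPM before the ratio, Cdkn1c (1.33 TPM in mAML, 0.32 in GMP) was less than 2-fold higher.

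The 2 untreated preparations of LSC differed in the CIP/KIP genes. Cdkn1c had 1713 counts in the single LSC library and 0 counts in both 0 h libraries, where 3 counts would have been 0.371 and 0.418 CPM. Cdkn1a stood at 3.71 TPM in the single library and at 199 and 226 TPM at 0 h. Cdkn2c (94.5 and 123 TPM) and Cdkn2d (52.1 and 48.4 TPM) were lower at 0 h than in the single library, and Cdkn1b (41.2 and 47.2 TPM) was higher. The progenitor genes summed to 30762 TPM in the single library and to 10613 and 10124 TPM at 0 h. The labels do not say how these preparations differed, and no test was made between them.

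In the A-485 time course, Cdkn1b rose and Cdkn2d, Cdkn2c and Cdkn2a fell, from 24 or 48 h on, while Cdkn1a passed the edgeR test against 0 h at 48 h alone. Of the 7 members, 5 had enough counts to be tested among 11119 genes, and Cdkn1c and Cdkn2b did not. Calls required a p under 0.05 in edgeR's quasi-likelihood test after Benjamini-Hochberg adjustment. At 8 h none of the 5 was called, against 17.9% of genes called higher and 21% lower. An unadjusted p under 0.05 was reached there by 3 of the 5, as by 5432 of the 11119 genes. DESeq2 called 1 member lower at 8 h, Cdkn1a. At 24 h, 1 member was called higher and 2 lower, against 23.2% and 27.1% of genes. At 48 h, 2 were called higher and 3 lower, against 25.2% and 30.5%, and at 72 h, 1 was higher and 3 lower, against 25.9% and 29.4%. From 8 to 72 h, 2 were higher and 2 lower, against 15.1% and 17.2%. With the 4 treated times tested together all 5 were called, as were 59.8% of genes.

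The scaling matters for the size of these changes. Trimmed-mean (TMM) factors were 0.830 and 0.832 at 0 h and 1.03 to 1.07 at the treated times. Scaling by library size alone moved the median gene from -0.02 to 0.35 at 72 h on the log2 scale, and limma on log2(TPM + 1) moved it to 0.62. Under library size alone Cdkn1a was called higher at 24 and 72 h as well (0.80 and 0.67), and in TPM likewise (0.997 and 1.01). The directions of the called changes of Cdkn1a, Cdkn1b, Cdkn2a and Cdkn2d against 0 h were the same under all these scalings, and that of Cdkn2c at 72 h turned in TPM, as given with that gene. Without the 3 libraries with high Wnt2, a setting added after the data were seen, Cdkn1a was called higher (0.65, adjusted p = 0.00346) and Cdkn2c lower (-0.83, adjusted p = 0.00457) at 24 h, and Cdkn2a was not called there (-2.25, adjusted p = 0.0666).

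**Figure D2:**
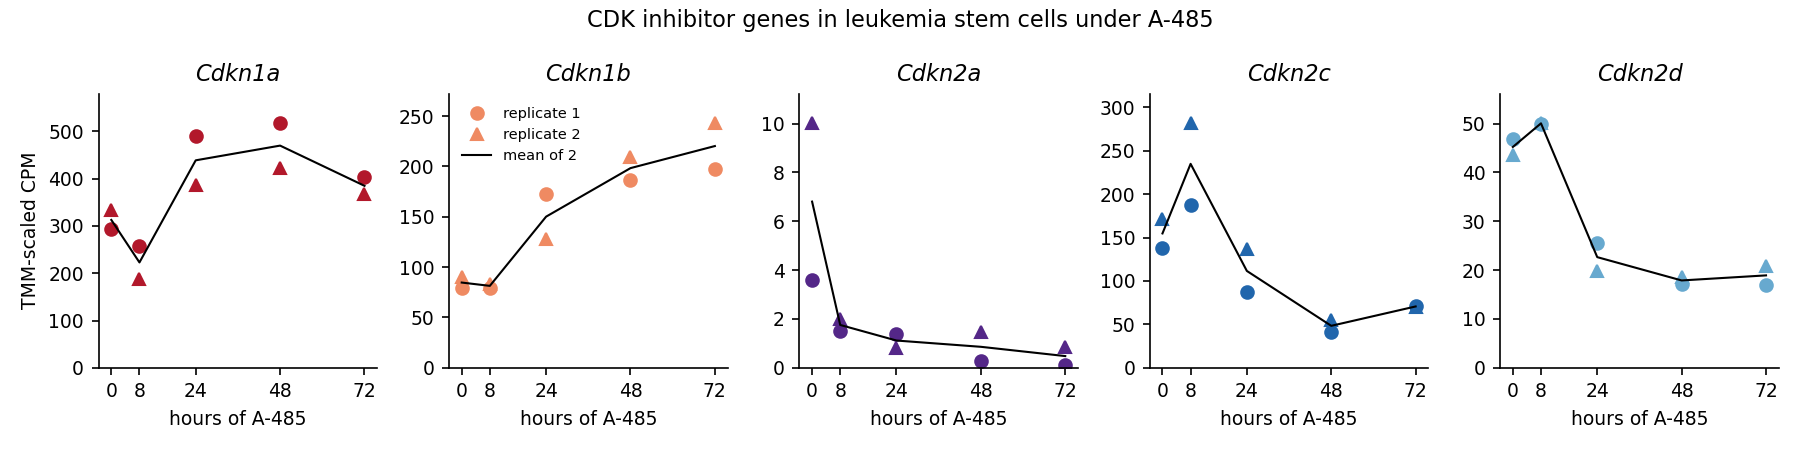
TMM-scaled CPM of the 5 tested CDK inhibitor genes against hours of A-485; points are libraries (circle replicate 1, triangle replicate 2), lines join the means of 2, and each panel has its own vertical axis from 0. Cdkn1b climbed from 84.7 to 220.2 CPM and Cdkn2d dropped from 45.2 to 18.9 CPM.

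Cdkn1b, the gene of p27, rose between 8 and 24 h and was high from then on. Its levels were 78.8 and 90.5 CPM at 0 h, 79.2 and 83.6 at 8 h, 173 and 128 at 24 h, 187 and 210 at 48 h, and 197 and 243 at 72 h. The 0 and 8 h libraries overlapped, and every library from 24 h on lay above all of them. The log2 change against 0 h was -0.06 ± 0.17 (SE) at 8 h (adjusted p = 0.814; 0.26 under library size alone), 0.83 ± 0.17 at 24 h (0.00386), 1.23 ± 0.17 at 48 h (0.000395) and 1.38 ± 0.17 at 72 h (0.000222), a 2.60-fold rise by then. Cdkn1b also rose from 8 to 24 h (0.88, adjusted p = 0.00759). The steps from 24 to 48 h (0.40, adjusted p = 0.351) and from 48 to 72 h (0.15, adjusted p = 0.932) did not pass the test.

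Cdkn1a, the gene of p21 and a classical target of p53, was the most abundant member in 9 of the 10 time-course libraries by TPM. It stood at 293 and 333 CPM at 0 h, 257 and 188 at 8 h, 491 and 387 at 24 h, 518 and 422 at 48 h, and 403 and 367 at 72 h. In CPM, both 8 h libraries lay below both 0 h libraries, and all later libraries lay above them. In TPM, the 8 h libraries (233 and 178) did not both lie below those at 0 h (199 and 226). Against 0 h only the 48 h change passed the test, at 0.59 ± 0.18 (adjusted p = 0.0228), while 8 h (-0.49, adjusted p = 0.0615), 24 h (0.49, adjusted p = 0.0504) and 72 h (0.30, adjusted p = 0.189) did not. The 24 h change lay at the threshold and was called in DESeq2 (0.49, adjusted p = 0.0224), with DESeq2 size factors (0.0482), with upper quartile scaling (0.0359) and without a count filter (0.0221). The 8 h change was called in DESeq2 (adjusted p = 0.0289) and without a count filter (0.0441), and was -0.28 without the 3 libraries with high Wnt2. Without 0 h replicate 1 the 48 h change was 0.56 (adjusted p = 0.0924), and without 48 h replicate 1 it was 0.43 (adjusted p = 0.150). Against 8 h, the lowest time, Cdkn1a rose by 0.98 ± 0.18 at 24 h (adjusted p = 0.00731) and was still higher at 72 h (0.79, adjusted p = 0.0113). The 72 h difference from 8 h was 0.58 (adjusted p = 0.0586) without 8 h replicate 2 and 0.72 (adjusted p = 0.0574) without 72 h replicate 1, both among the libraries with high Wnt2, and 0.51 (adjusted p = 0.0417) without all 3 of these.

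The upstream promoter window of Cdkn1a is shown because it holds a p53 response element and the calls of other p53 targets are given beside those of Cdkn1a. The sequence is from RefSeq (GRCm38.p6, chr17:29090729-29091028, plus strand) and runs from 250 bases before to 50 bases after the start of the upstream transcript. Capitals mark the element, which begins 51 bases before the start and has 1 mismatch to the consensus.
Cdkn1a upstream start: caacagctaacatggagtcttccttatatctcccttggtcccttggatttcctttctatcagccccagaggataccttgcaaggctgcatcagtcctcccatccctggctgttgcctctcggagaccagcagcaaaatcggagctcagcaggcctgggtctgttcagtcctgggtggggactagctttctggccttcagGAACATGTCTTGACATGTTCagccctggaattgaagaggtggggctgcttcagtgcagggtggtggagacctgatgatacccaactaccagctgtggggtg
Such an element, searched on both strands, was found in 22 of 32851 promoter windows of the same length, or 0.067%. No other member window among the 9 matched held one, including the window at the downstream Cdkn1a start, where NM_007669 begins. In the GENCODE vM21 annotation NM_007669 measures 1913 nt and the upstream transcript, NM_001111099, 922 nt. The deposited Cdkn1a length lay between 1910 nt (LSC) and 1912 nt (0 h replicate 2), close to that of NM_007669. Deposited and GENCODE lengths can differ, as for Cdkn2d (1270 nt deposited, 1423 nt in GENCODE), so this nearness cannot show which start was used. Use of either start was not tested. A match of letters does not show that p53 was bound in these cells.

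Of 24 tested p53 targets other than Cdkn1a, 6 were called higher and 4 lower at 8 h, 12 and 3 at 24 h, 11 and 5 at 48 h, and 10 and 4 at 72 h, with median log2 changes of 0.17, 0.60, 0.49 and 0.43. Over all tested genes the medians lay between -0.04 and 0.01. Mdm2, whose product degrades p53, was higher at each time (0.71, 0.82, 0.74 and 0.56), and so was the cyclin gene Ccng1 (0.82 at 8 h and 1.08 at 72 h). The targets Perp and Xpc were lower at each time, with changes of -3.11 and -1.32 at 72 h. The p53 gene itself, Trp53, was lower from 24 h on in TMM-scaled counts, with a change of -0.67 at 72 h (adjusted p = 0.00113). In TPM, Trp53 stood at 108 and 106 at 0 h and at 116 and 103 at 72 h. In TMM-scaled counts, the 8 h change of Cdkn1a, not called in edgeR, was opposite in direction to those of Mdm2 and Ccng1. On that scale it had the direction of Perp and Xpc (-1.32 and -1.63 at 8 h). In TPM, the mean of Cdkn1a at 8 h was 0.97 of that at 0 h. These differences between targets were not tested.

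Cdkn1c, high in the single LSC library, stayed at the limit of detection under A-485. It had 2 counts in each 8 h library, 1 in 24 h replicate 1 and 0 in the other 7 libraries of the time course. Cdkn2b, the gene of p15, had at most 9 counts in any time-course library. Its counts were 0 and 3 at 0 h, 2 and 7 at 8 h, 2 and 9 at 24 h, 0 and 0 at 48 h, and 3 and 0 at 72 h, and the largest values at 8, 24 and 72 h fell in the 3 libraries with high Wnt2. No change could be measured in either gene at this depth.

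Cdkn2a had 29 and 72 counts at 0 h, 13 and 18 at 8 h, 13 and 7 at 24 h, 2 and 10 at 48 h, and 1 and 7 at 72 h. All treated libraries lay below both 0 h libraries, which themselves differed from each other by more than any treated pair in CPM (3.58 and 10.03). The log2 change was -1.94 ± 0.83 at 8 h (adjusted p = 0.0939), -2.58 ± 0.86 at 24 h (0.0341), -2.97 ± 0.90 at 48 h (0.0215) and -3.76 ± 0.95 at 72 h (0.00954). These calls rested on single libraries: without 0 h replicate 2 the adjusted p was 0.255, 0.170 and 0.0758 at 24, 48 and 72 h, with changes of -1.63, -1.99 and -2.81. They were also lost at 24 h without either 24 h library (adjusted p = 0.0750 and 0.142), at 48 h without replicate 1 (0.130) and at 72 h without replicate 1 (0.0580). The row pools p16Ink4a and p19Arf, which start from different first exons. Its deposited length lay between 850 and 929 nt, and the longer form took 80.5% and 88.0% at 0 h. At 8 and 24 h replicate 1 was given wholly to the longer form and replicate 2, with 18 and 7 counts, wholly to the shorter, so no shift between the products could be read.

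Cdkn2d, the gene of p19Ink4d, fell between 8 and 24 h and was low from then on. It stood at 46.8 and 43.6 CPM at 0 h, 49.9 and 50.1 at 8 h, 25.5 and 19.8 at 24 h, 17.2 and 18.6 at 48 h, and 17.0 and 20.8 at 72 h. No library from 24 h on reached the lowest of the 0 and 8 h libraries. The log2 change was 0.15 ± 0.17 at 8 h (adjusted p = 0.509), -0.995 ± 0.17 at 24 h (0.00168), -1.34 ± 0.17 at 48 h (0.000289) and -1.26 ± 0.17 at 72 h (0.000396). From 8 to 24 h it fell by 1.14 (adjusted p = 0.00285), with no further step called. The 8 h change depended on the scaling. Under library size alone it was called higher (0.46, adjusted p = 0.0461), where the median gene changed by 0.33. With limma on log2(TPM + 1) it was also called higher (0.58, adjusted p = 0.00924), where the median gene changed by 0.41. Cdkn2d is listed with 1 transcript length, 1270 nt, in every library.

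**Figure D3:**
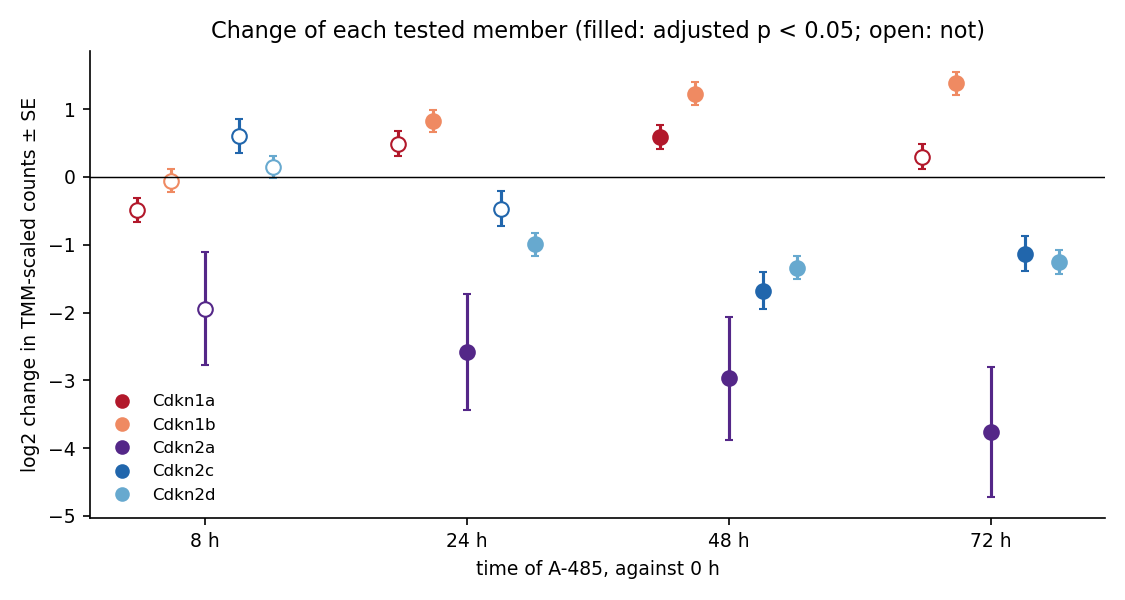
Log2 change of the 5 tested members against 0 h in TMM-scaled counts, with bars of 1 standard error; filled points passed an adjusted p of 0.05 and open points did not. At 8 h every point is open, and at 72 h Cdkn1b (1.38) lies opposite Cdkn2a (-3.76), Cdkn2d (-1.26) and Cdkn2c (-1.13).

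Cdkn2c, the gene of p18Ink4c, was highest at 8 h and lowest at 48 h. Its levels were 138 and 172 CPM at 0 h, 188 and 282 at 8 h, 86.9 and 136 at 24 h, 41.3 and 55.4 at 48 h, and 70.9 and 70.5 at 72 h. The 8 h libraries lay above both 0 h libraries, and those from 24 h on lay below them. The 8 h change was 0.60 ± 0.26 (adjusted p = 0.0942) and the 24 h change -0.47 ± 0.26 (adjusted p = 0.158), neither past the threshold. At 48 h it fell by 1.68 ± 0.27 (adjusted p = 0.000924) and at 72 h by 1.13 ± 0.26 (adjusted p = 0.00639). Without 0 h replicate 2 the 72 h change was -0.93 (adjusted p = 0.0518). From 8 to 24 h Cdkn2c fell by 1.07 (adjusted p = 0.0200), a call lost without 8 h replicate 2 (-0.75, adjusted p = 0.105) or without 24 h replicate 1 (-0.79, adjusted p = 0.0942). From 24 to 48 h its change was -1.21 (adjusted p = 0.0689; -0.85 and 0.0339 without the libraries with high Wnt2). In that step 2 of the 5 members had an unadjusted p under 0.05, as had 1448 of the 11119 genes, none was called, and 0.027% of genes were called higher and 2.1% lower. DESeq2 called 1 of the 5 there, Cdkn2c. Between 48 and 72 h edgeR called no member, none had an unadjusted p under 0.05, and DESeq2 called none. Of the 11119 genes 0% were called there in edgeR, while 498 had an unadjusted p under 0.05 and DESeq2 called 12.

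The fall of Cdkn2c in counts went with a fall in its transcript length. The deposited transcript length of the gene, an average weighted by the abundance of its transcripts, was 1894 and 1818 nt at 0 h, 1905 and 1883 at 8 h, 1661 and 1546 at 24 h, 1213 and 1259 at 48 h, and 1208 and 1205 at 72 h. It was 1882 nt in GMP, 1791 in LSC and 1686 in mAML. No library at 48 or 72 h exceeded 1259 nt, the 24 h libraries lay above these, and all others were at 1686 nt or more. Tested with limma on log2 length over 3133 genes with more than 1 transcript, the length fell by 0.59 ± 0.04 at 48 h (adjusted p = 0.00440) and by 0.62 ± 0.04 at 72 h (adjusted p = 0.00427). The difference was 0.03 at 8 h (adjusted p = 0.943), when 0.128% of genes were called shorter, and -0.21 at 24 h (adjusted p = 0.153), when 0.255% were. Against 8 h the 72 h length fell by 0.65 (adjusted p = 0.0168), with 0.287% of genes called shorter. At 48 and 72 h, 0.606% and 0.638% of genes were called shorter, and Cdkn2c was second from the shortest side at both. This test was added after the lengths were seen. Without the 3 libraries with high Wnt2 the sizes were -0.59 and -0.62, with adjusted p of 0.0760 and 0.0812.

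**Figure D4:**
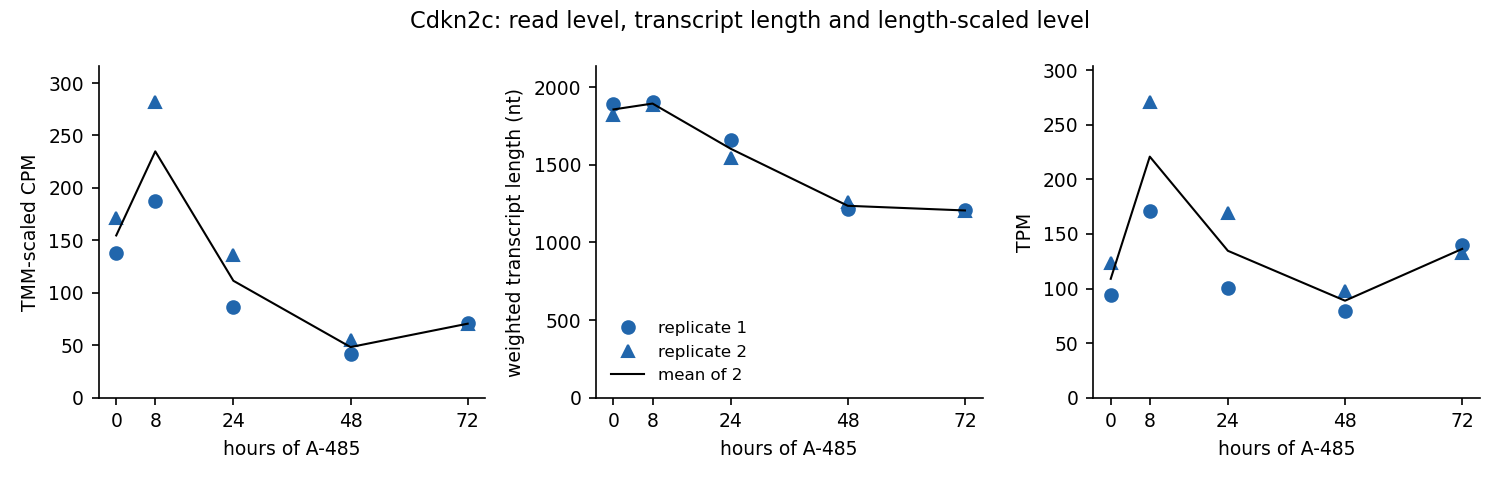
Cdkn2c against hours of A-485 in TMM-scaled CPM, in weighted transcript length (nt) and in TPM; points are libraries (circle replicate 1, triangle replicate 2) and lines join the means of 2. Between 0 and 72 h the mean CPM went from 155 to 70.7 and the mean length from 1856 to 1206 nt, while the mean TPM went from 109 to 136.

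Counts depend on transcript length, and length-scaled levels of Cdkn2c gave other sizes. With each library's own effective length as an offset in edgeR, a setting chosen after the data were seen, the change was -0.96 at 48 h (adjusted p = 0.0195) and -0.38 at 72 h (adjusted p = 0.272). In TPM, Cdkn2c stood at 94.5 and 123 at 0 h, 171 and 271 at 8 h, 100.3 and 169 at 24 h, 79.6 and 98.2 at 48 h, and 140.0 and 133 at 72 h, so the 72 h libraries lay above both 0 h libraries. With limma on log2(TPM + 1) its change at 48 h was -0.29 (adjusted p = 0.390), where the median gene changed by 0.57, so the 48 h call was lost on this scale. At 72 h the change was 0.33 (adjusted p = 0.317), where the median gene changed by 0.62. At 8 h the change on this scale was 0.99 (adjusted p = 0.0167), where the median gene changed by 0.41.

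The windows around the 2 start sites that RefSeq lists for Cdkn2c are shown because its 2 listed transcripts begin at different sites. NM_007671 begins at the RefSeq start in the downstream window. The upstream window lies around another start that RefSeq lists, and it does not reach the start of NM_001301368 in the GENCODE vM21 annotation, which lies further upstream. In that annotation NM_001301368 measures 2471 nt and NM_007671 1106 nt. Each window runs from 250 bases before to 50 bases after a start listed by RefSeq on GRCm38.p6, on the minus strand, at chr4:109666707-109667006 (upstream) and chr4:109665323-109665622 (downstream). Capitals mark the GC box, GGGCGG, and the CCAAT box, named by its letters. An E2F site would also be in capitals, as TTTCCCGC (the first form). The second form searched was TTTGGCGC, and all were sought on both strands.
Cdkn2c upstream start: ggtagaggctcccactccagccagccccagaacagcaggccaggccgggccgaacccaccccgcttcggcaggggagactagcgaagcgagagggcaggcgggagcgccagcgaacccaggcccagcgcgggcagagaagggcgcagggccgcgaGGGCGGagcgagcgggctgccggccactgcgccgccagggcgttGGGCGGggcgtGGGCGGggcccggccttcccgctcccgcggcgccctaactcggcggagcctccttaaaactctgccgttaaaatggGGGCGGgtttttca
Cdkn2c downstream start: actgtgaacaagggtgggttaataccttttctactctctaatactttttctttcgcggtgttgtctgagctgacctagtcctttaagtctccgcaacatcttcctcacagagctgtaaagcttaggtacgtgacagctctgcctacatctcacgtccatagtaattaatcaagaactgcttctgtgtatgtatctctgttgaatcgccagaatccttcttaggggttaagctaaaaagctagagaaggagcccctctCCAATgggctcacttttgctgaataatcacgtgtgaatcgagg
The upstream window was 73.3% G and C with 4 GC boxes and no CCAAT box, and the downstream window was 44% G and C with no GC box and 1 CCAAT box. Of all 32851 windows, 35.7% held a GC box, 37.4% a CCAAT box, 1.07% the first E2F site and 0.514% the second. Neither Cdkn2c window held an E2F site in these letters. These are descriptions of sequence and say nothing of which factors were bound.

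The make-up of the inhibitors, as shares of the 7 genes' summed TPM, leaned more to the CIP/KIP genes at 72 h than at 0 h. Cdkn1a held 50.6% and 48.8% of the sum at 0 h, 43.4% and 30.0% at 8 h, and 57.0% and 51.5% at 72 h. Cdkn1b held 10.5% and 10.2% at 0 h and 21.5% and 26.3% at 72 h, higher in both later libraries. Cdkn2c went from 24.1% and 26.7% through 31.8% and 45.6% at 8 h to 17.4% and 17.2%. Cdkn2d went from 13.3% and 10.5% to 3.93% and 4.75%. In GMP, LSC and mAML, by contrast, Cdkn2c and Cdkn2d had the largest shares, with Cdkn2c at 38.0%, 58.1% and 47.3% and Cdkn2d at 34.6%, 27.7% and 35.1%. Because the shares are of one sum, a rise in 1 gene lowers the others, and the shares were not tested.

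**Figure D5:**
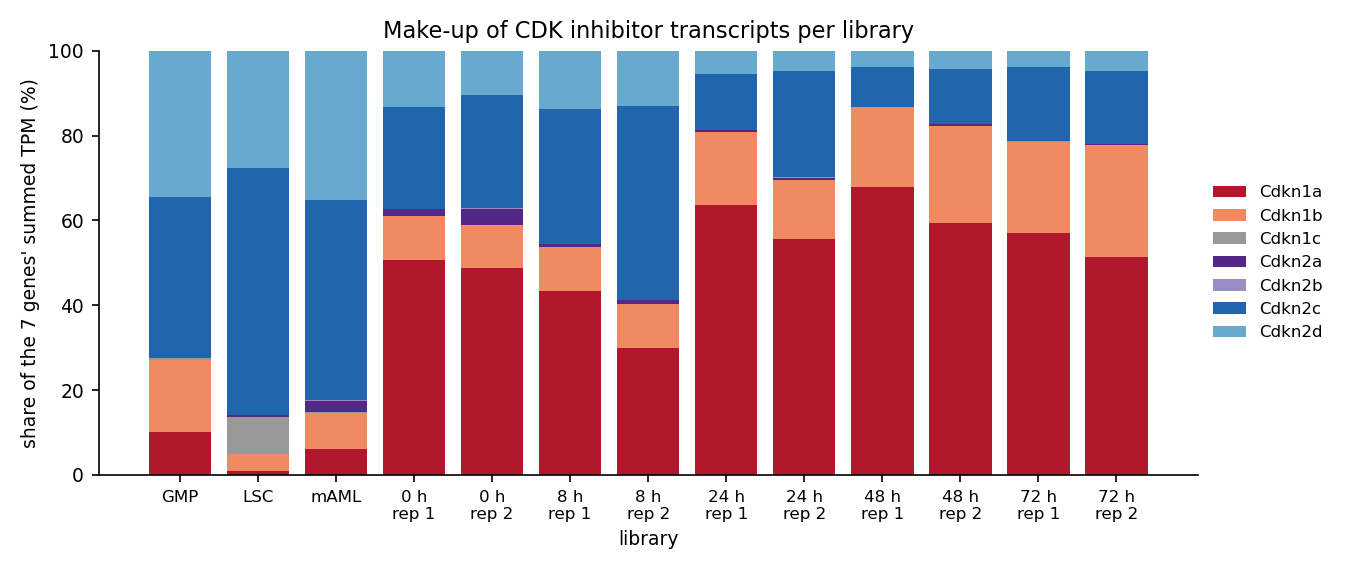
Share of each CDK inhibitor gene in the summed TPM of the 7 genes, in percent, with 1 bar per library. Cdkn2c and Cdkn2d make up most of the 3 bars on the left, Cdkn1a takes 50.6% and 48.8% at 0 h, and Cdkn1b reaches 21.5% and 26.3% at 72 h.

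Of the genes on which the inhibitors act, most were called lower at 48 and 72 h. Of 18 cyclin, CDK and pocket protein genes, 1 was called higher and 5 lower at 8 h, 1 and 9 at 24 h, 2 and 11 at 48 h, and 1 and 12 at 72 h, against 21%, 27.1%, 30.5% and 29.4% of all tested genes called lower. Cdk4, the kinase bound by the INK4 proteins, was lower from 8 h on (-0.78, -1.84, -2.14 and -2.01). Cdk6 was lower at 48 and 72 h (-1.25 and -1.09), and the D cyclin gene Ccnd3 at 8 h (-1.04), while Ccnd1 and Ccnd2 were not called at any time (0.26 and -0.12 at 72 h). Cdk1 and Ccnb1, which drive mitosis, were not called at 8 h (0.19 and 0.62) and were lower at 72 h (-5.32 and -6.48). The retinoblastoma gene Rb1 was called higher at 48 h (0.95, adjusted p = 0.0377) and had 0.62 at 72 h (adjusted p = 0.142).

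Genes that report the cell cycle itself were mostly called lower from 24 h on. All 31 S-phase genes were called lower at 24, 48 and 72 h (median -2.27, -3.28 and -3.01), against 8 at 8 h. Of 30 G2/M genes, whose median was 0.51 at 8 h, 23 were called lower at 24 h and all 30 at 48 and 72 h (median -1.47, -4.95 and -5.48). From 8 to 24 h, 2 of the 5 tested inhibitors were called higher and 2 lower, against 9.73% and 12% of genes. In the same step 30 of 31 S-phase genes (median -2.01) and all 30 G2/M genes (median -1.97) were called lower. From 24 to 48 h, when edgeR called no inhibitor, 13 S-phase genes (median -1.04) and 29 G2/M genes (median -3.27) were. The division marker Mki67 had a change of -7.34 at 72 h (adjusted p = 5.74e-05).

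Among 14 genes of the ubiquitin ligases that turn over p27 and p21, 3 were called higher and 7 lower at 72 h, against 25.9% and 29.4% of all genes. Skp2, which marks p27 for degradation, was lower at 24, 48 and 72 h (-1.27, -1.52 and -1.39), and its cofactor Cks1b reached -4.87 at 72 h. These are levels of RNA, and p27 protein was not measured. Among 28 tested genes known to regulate CDK inhibitor transcription, 11 were called higher and 10 lower at 72 h, against the same shares. Myc, a repressor of several inhibitor genes, was lower at 8 h (-4.59) and at 72 h (-7.02, adjusted p = 0.000161). Ezh2 was lower (-1.95) and Cbx7 higher (2.51) at 48 h, both genes of Polycomb proteins, and Cebpa and Gfi1 were lower at each time. The genes of the drug's targets, Ep300 and Crebbp, were higher at each time, by 1.71 and 1.89 at 72 h.

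All 10 progenitor markers were called lower at each time, with a median of -7.31 at 72 h, as were 8 of 9 tested neutrophil genes from 24 h on, and the part of a changing mix of cells in the inhibitors' changes was not tested. Neutrophil genes also differed between the 0 h libraries, at 7034 and 1874 TPM in sum, the pair in which Cdkn2a had 29 and 72 counts.

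Across the 10 time-course libraries, the genes whose log2 CPM followed each inhibitor most closely, among those with a mean of at least 10 CPM, were listed as a description. Pearson's r was 0.983 for Mkl1, 0.979 for Itpr2 and 0.972 for Stat5b with Cdkn1a. It was 0.993 for Zfp263, 0.988 for Gm20605 and 0.988 for Lmbr1l with Cdkn1b. With Cdkn2d it was 0.992 for the primase gene Prim1, 0.990 for Anapc15 and 0.989 for 4930427A07Rik. For Cdkn2c the closest were Commd1 (0.985), Acp1 (0.976) and Slc25a3 (0.975), and for Cdkn2a, at few counts, Rpl29 (0.956), Txn2 (0.955) and Atxn10 (0.954). The points share 5 times and their paired libraries, and 9026 genes were ranked (9027 for Cdkn2a), so no p is given.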

How the data were processed

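The submitters' processing notes name STAR, RSEM and the mouse build mm9, without versions or settings. Per the file headers, the authors' tables hold an expected count, a TPM and an abundance-weighted transcript length for every gene. Expected counts, estimated reads per gene as deposited, were rounded here to whole numbers. TPM were used as deposited, scaled by the authors for transcript length and depth. The time course was fitted with edgeR 4.0.16 (R 4.3.3): TMM scaling, filterByExpr, time as a factor, no replicate block, quasi-likelihood test and Benjamini-Hochberg adjustment over 11119 genes. The standard error is the absolute log2 change over the square root of F. For single libraries, log2 ratios had a prior count of 5 and genes needed 1 CPM in either library. Transcript length was tested with limma 3.58.1. Other scalings, filters, units, DESeq2 1.42.0 and leaving out each library were tried, and the tests were tested on simulated data. Named genes are all members, up to 4 genes per list with the smallest p over all treated times, a short fixed set, and the 3 closest in correlation. Members and lists were chosen with earlier results of these data known. Promoter sequences are from RefSeq on GRCm38.p6, not the authors' build, and 6 of 7 members matched by symbol.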

Additional observations from a re-analysis of the deposited data

How the results depend on the processing

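The depth of 6467762 to 9763278 counts left Cdkn1c and Cdkn2b unmeasured and Cdkn2a at 1 to 72 counts. Counts of members called against 0 h moved as follows. At 8 h (0 higher, 0 lower), higher calls were 2 under library size alone and 2 under both limma fits on filtered TPM, Cdkn2c and Cdkn2d each time. They were 3 under limma without a filter, a fit over all 7 members. The third of these was Cdkn1c or Cdkn2b, with 2 and 2 counts and 2 and 7 counts in the 8 h libraries. Cdkn1c had 0.21 TPM in both 8 h libraries against 0 in both at 0 h. Cdkn2b overlapped, with 0.30 and 1.08 TPM at 8 h against 0 and 0.41 at 0 h. Without a count filter 1 was called higher, Cdkn2c. Lower calls were 1 without a count filter and 1 in DESeq2, Cdkn1a both times. At 24 h (1 higher, 2 lower), higher calls were 2 under library size alone, DESeq2 size factors, upper quartile scaling, no count filter, DESeq2, all limma fits, the length trend, each library's own length, only the groups compared and without the libraries with high Wnt2. Lower calls there were 1 under the limma fits and the length trend. At 48 h (2 higher, 3 lower), lower calls were 1 under limma without a filter and 2 under both filtered limma fits. At 72 h (1 higher, 3 lower), higher calls were 2 under library size alone, the limma fits and only the groups compared, and lower calls 2 under the limma fits and own length. From 8 to 24 h, lower calls were 1 under the limma fits, own length and only the groups compared, where higher calls were 0. From 24 to 48 h, lower calls were 1 without a count filter, in DESeq2 and without the high-Wnt2 libraries. From 8 to 72 h they were 1 under limma on log2(TPM + 1) and log2(TPM + 0.1).

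The replicate numbers did not mark 1 pairing through all times: residual correlations between same-numbered libraries ran from -0.41 to 0.64, above 0.1 in 3 of 10 pairs of times. The value was 0.64 for 8 and 24 h, and -0.40 and -0.41 for these 2 times against 72 h. The libraries with high Wnt2 are replicate 2 at 8 and 24 h and replicate 1 at 72 h. The main fit had no replicate block and so took no account of this. With the replicate block, 1 member was called higher and 1 lower at 8 h, 2 higher and 3 lower at 24 h, and 1 lower from 24 to 48 h. The added calls were Cdkn1a (-0.51 at 8 h, adjusted p = 0.0329; 0.47 at 24 h, 0.0345) and Cdkn2c (0.58 at 8 h, 0.0229; -0.49 at 24 h, 0.0341) in edgeR, and Cdkn2c from 24 to 48 h. With the block and the length trend, 1 was higher at 8 h, 2 higher and 1 lower at 24 h, 2 higher at 72 h and 1 lower from 24 to 48 h.

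Leaving out each library in turn, higher calls ran from 0 to 1 at 8 h, 1 to 2 at 24 h, 1 to 2 at 48 h and 1 to 2 from 8 to 72 h, and lower calls from 0 to 1 at 8 h, 1 to 2 at 24 h, 2 to 3 at 48 h, 1 to 3 at 72 h, 1 to 2 from 8 to 24 h and 0 to 1 from 24 to 48 h. A lone library of a time is then assumed to vary like the others.

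Directions that turned were of changes not called, or of Cdkn2c. Cdkn1b at 8 h was 0.26 under library size alone, 0.012 under upper quartile scaling and 0.39 under all 3 limma fits (0.386 and 0.393), and ran from -0.11 to 0.086 with libraries left out. Cdkn2c was 0.27 at 24 h (0.267 and 0.269) and 0.33 to 0.34 at 72 h (0.333 and 0.335) under the limma fits on TPM, and -0.21 and -0.38 with own length in edgeR. From 24 to 48 h, Cdkn1a was -0.064 without the high-Wnt2 libraries and ran from -0.064 to 0.28 with libraries left out, with -0.057 without 48 h replicate 1, and Cdkn2a ran from -1.99 to 0.37, with 0.034 without 24 h replicate 1. From 48 to 72 h, Cdkn2a ran from -2.62 to 0.81, Cdkn1b from -0.0054 to 0.29 and Cdkn2d from -0.068 to 0.22. For the other changes the cause was not tested. The single-library ratios kept their direction under every scaling, unit and prior tried. Their sizes were less steady: 31 such values of single members lay outside the counting interval of the main ratio.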
